A study of Homo sapiens with 12 samples.

Results

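The EGF receptor family and its ligands were read on 35 probe sets of 54613 on the array, each with a single platform symbol, and these stand for 9 of 10 chosen genes. They are the receptors EGFR, ERBB2 and ERBB3, the ligands EREG, HBEGF, TGFA, BTC and NRG1, and the intracellular inhibitor ERRFI1. The platform table used here pairs no probe set with AREG alone, so the ligand amphiregulin was not analysed here. The RNA came from MDA-MB-231, an established line from a metastatic human breast carcinoma, cultured in serum without further treatment. Sharp1 cells overexpressed Sharp1, the helix-loop-helix repressor encoded by BHLHE41, shHIF cells carried retroviral hairpins that deplete HIF1a and HIF2a, and the control, shGFP, a retroviral hairpin to GFP, with 4 arrays, A to D, per group. The vector and promoter behind Sharp1 overexpression, and whether any line is 1 clone, are details not given in the sources used here. Sharp1 cells are set against the GFP hairpin for want of another control. The labels call the 4 samples of a group biological replicates but name no separate culture for each, and p-values then reflect only how far these arrays spread.

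EGF family ligands are made as membrane proteins, cut loose by ADAM proteases and bound by receptor tyrosine kinases on the same or a neighbouring cell. EGFR binds EREG, HBEGF, TGFA and BTC, ERBB3 binds NRG1, and ERBB2, which has no known soluble ligand of its own, pairs with the others. Active receptors feed the RAS-ERK and PI3K pathways, and ERRFI1, also called MIG6, binds the kinase domain of EGFR and restrains it. In triple-negative breast carcinoma lines such as MDA-MB-231, EGFR is typically abundant and ERBB2 is not amplified.

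All values are log2 signals after RMA, so a difference of 1 is a doubling of signal, and levels of different probe sets are not compared. A gene is read on its brightest probe set, by the mean over all groups, unless another is named. A gene is said to rise or fall where limma's adjusted p, over 19775 genes, was under 0.05. In bulk RNA, fewer cells carrying a transcript and less transcript per cell cannot be told apart.

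The arrays of the 3 groups had medians from 5.39 to 5.44, and the lowest correlation within a group, 0.996, was close to the highest between groups, 0.995. On its probe set with the largest change, BHLHE41 rose by 5.35 in Sharp1 cells (9.24 ± 0.29 in Sharp1 cells, 3.89 ± 0.07 in control cells, SD, n = 4 each), while another of its probe sets fell by 2.06. In shHIF cells EPAS1, the gene of HIF2a, fell by 2.85 and HIF1A by 0.73. EPAS1 also fell in Sharp1 cells, by 0.71 on the same probe set (adjusted p = 7.07e-08 over all probe sets). HIF1A was not called there (0.09, adjusted p = 0.0836). Of 7 markers of the line, 6 had group means from 10.4 to 14.6, VIM, CD44, CAV1, AXL, MSN and ZEB1, whereas SPARC read 3.98, 3.97 and 3.67 in Sharp1, shHIF and control cells, under the median probe set of 5.41. In Sharp1 cells CD44 rose by 0.90 and VIM by 0.08, and AXL fell by 0.17. VIM fell by 0.26 and CAV1 by 0.28 in shHIF cells. Among markers of luminal cells, PGR, FOXA1 and CDH1 lay under the median probe set and 5 of 8 above it, ESR1, GATA3, KRT8, KRT18 and SPDEF. That median is no threshold of detection, so a reading above it does not show that a gene was expressed. ESR1 read 6.29, 6.46 and 6.27 in Sharp1, shHIF and control cells. SPDEF fell by 0.88 in Sharp1 cells and by 0.38 in shHIF cells, and in shHIF cells GATA3 rose by 0.25 and KRT8 fell by 0.13. Leukocyte markers averaged 5.16 to 5.32 on Sharp1 arrays and 5.14 to 5.29 on shHIF arrays, against 4.96 to 5.03 on control arrays. Of the 4 measured, 2 were called higher in each comparison with control, LCP1 and PTPRC, the second of which read no more than 4.45 in a group mean. Fibroblast markers were called higher for 2 of 6 in Sharp1 cells and 1 of 6 in shHIF cells. Of 4 endothelial markers, PECAM1 fell by 0.42 in Sharp1 cells and 0 were called in shHIF cells. Mean spike-in signal was 10.39 and 10.45 on shHIF A and D and 10.63 to 10.81 on the other 10 arrays, and the 3′ over 5′ difference of actin, which grows as RNA breaks down, was 0.61, 0.56, 0.85 and 0.68 on Sharp1 A to D and 0.94, 0.90, 0.91 and 0.62 on shHIF A to D, against 0.59 to 0.74 on control arrays. Sharp1 C and shHIF A, B and C stood above every control array. The part of these markers and quality measures in the results below was not tested, beyond fits that left out shHIF A and D for their low spike-in signal. Those fits keep shHIF B and C, with actin differences of 0.90 and 0.91, so they are no test of RNA breakdown.

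In Sharp1 cells 3 members rose and 5 fell of the 9 measured, so 8 were called, beside 27.2% of all genes (15.3% higher and 11.8% lower). The ligand HBEGF and the receptors ERBB2 and ERBB3 rose, while TGFA, EREG, BTC, ERRFI1 and EGFR fell. In shHIF cells 2 rose and 5 fell, beside 30.8% of all genes (17.6% higher and 13.2% lower), with NRG1 and EREG higher and ERBB3, TGFA, HBEGF, ERRFI1 and BTC lower. Both comparisons use the same control arrays. Set directly against shHIF cells, Sharp1 cells had 3 members higher and 4 lower, beside 38.4% of all genes (18.0% higher and 20.4% lower), and that comparison is the test of whether the 2 changes differ. The arrays of the 2 groups compared did not overlap for 7 of the 9 members in Sharp1 against control cells (28.9% of all genes), for 6 in shHIF against control cells (28.6%) and for 7 in Sharp1 against shHIF cells (35.4%). The members were chosen with earlier results of these data known, and the shares over all genes include dim genes. The part of either in these counts was not tested.

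**Figure D1:**
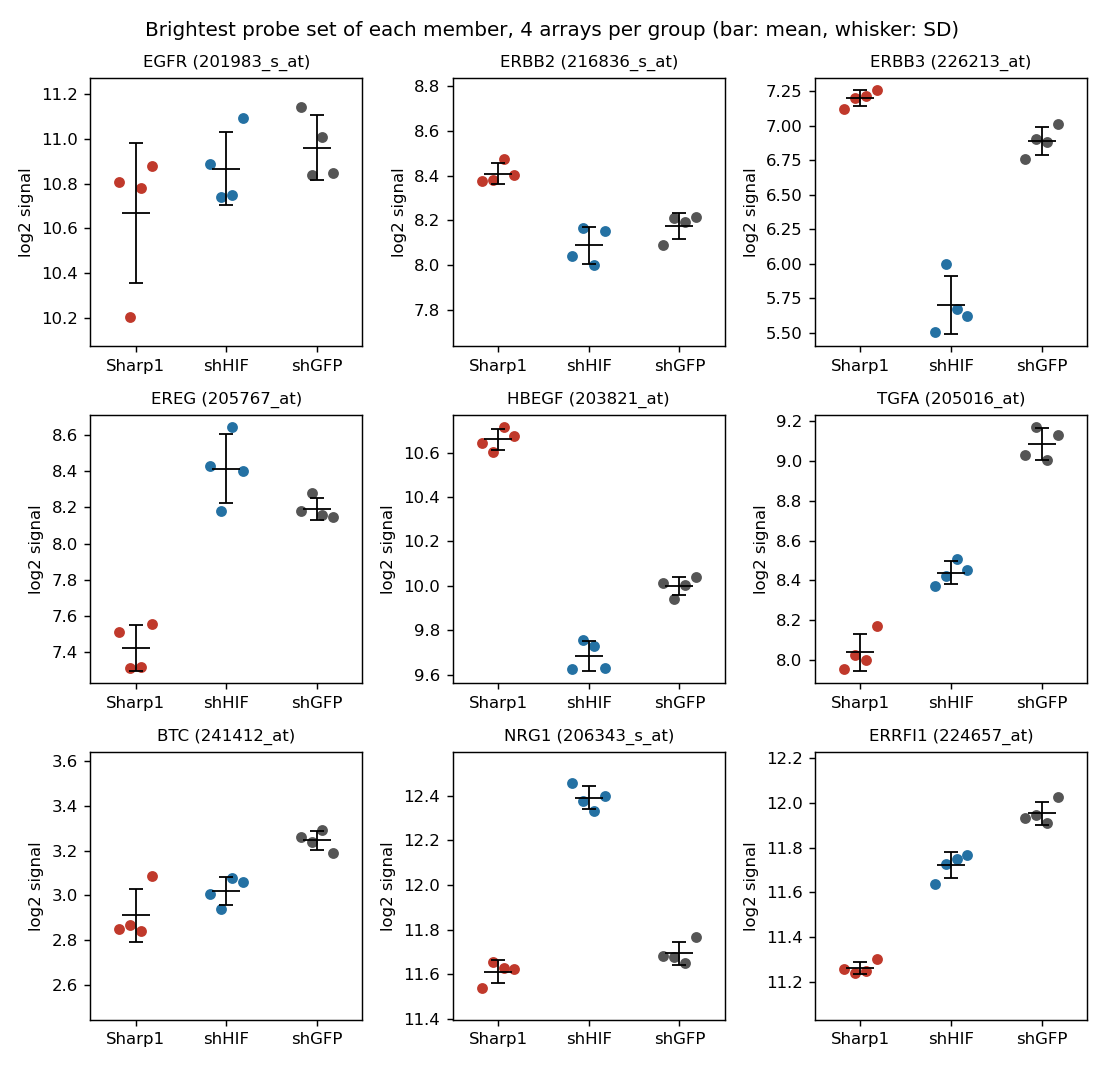
Log2 signal (vertical axes, scaled separately per panel) of the brightest probe set of 9 members on the 4 arrays of each group, with the mean and SD. HBEGF arrays stand in the order Sharp1, control, shHIF from high to low, TGFA and ERRFI1 arrays in the order control, shHIF, Sharp1, and ERBB3 is lowest on the 4 shHIF arrays.

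**Figure D2:**
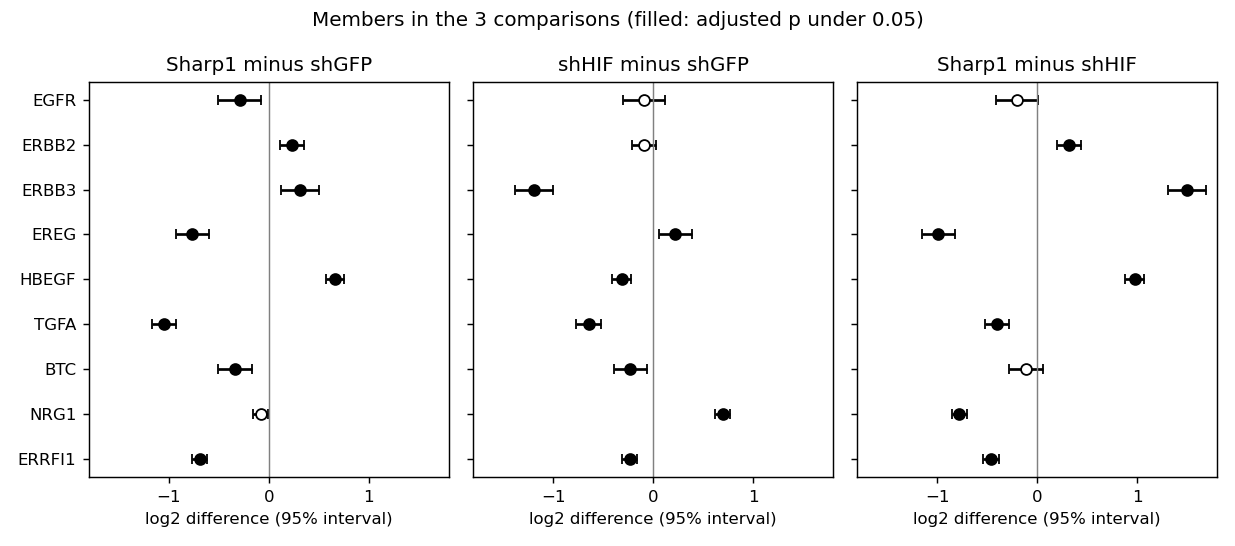
Log2 differences between groups (horizontal axes) with their 95% intervals for 9 members in 3 comparisons, filled where the adjusted p was under 0.05. ERBB3 stands at 0.31 in Sharp1 minus shGFP, -1.19 in shHIF minus shGFP and 1.50 in Sharp1 minus shHIF.

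The promoters of the 4 members that changed most in Sharp1 cells are shown because those cells overexpress a DNA-binding repressor and because 3 of the 4 fell together. They are TGFA, ERRFI1 and EREG, which fell, and HBEGF, which rose. Each is the RefSeq window of GRCh38.p14 from 250 bases before the gene's start to 50 after it, 5′ to 3′ on the gene's strand, and capitals mark exact matches on either strand to CACGTG (the E-box bound by Sharp1), to ACGTG or GCGTG (the core letters of HIF sites, which any CACGTG also contains), to TGANTCA (the AP-1 motif) or to TATAAA.
TGFA, chr2:70553777-70554076, minus strand: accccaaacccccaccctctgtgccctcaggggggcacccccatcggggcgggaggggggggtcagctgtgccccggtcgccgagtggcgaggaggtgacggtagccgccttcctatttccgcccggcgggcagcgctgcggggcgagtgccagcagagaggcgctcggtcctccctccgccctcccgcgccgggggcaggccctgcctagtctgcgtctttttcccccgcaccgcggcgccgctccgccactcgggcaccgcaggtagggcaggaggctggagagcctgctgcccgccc
ERRFI1, chr1:8026260-8026559, minus strand: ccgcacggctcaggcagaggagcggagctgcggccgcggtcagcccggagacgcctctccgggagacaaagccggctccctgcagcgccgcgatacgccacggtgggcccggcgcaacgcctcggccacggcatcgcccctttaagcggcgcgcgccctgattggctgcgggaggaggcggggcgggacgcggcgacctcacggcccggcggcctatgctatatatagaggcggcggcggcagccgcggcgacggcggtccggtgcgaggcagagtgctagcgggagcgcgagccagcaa
EREG, chr4:74364895-74365194, plus strand: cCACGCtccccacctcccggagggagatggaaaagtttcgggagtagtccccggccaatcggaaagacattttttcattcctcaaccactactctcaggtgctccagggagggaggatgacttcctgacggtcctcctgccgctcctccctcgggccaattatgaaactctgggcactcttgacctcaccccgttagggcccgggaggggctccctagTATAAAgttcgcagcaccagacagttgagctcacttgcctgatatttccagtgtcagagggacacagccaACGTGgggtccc
HBEGF, chr5:140346554-140346853, minus strand: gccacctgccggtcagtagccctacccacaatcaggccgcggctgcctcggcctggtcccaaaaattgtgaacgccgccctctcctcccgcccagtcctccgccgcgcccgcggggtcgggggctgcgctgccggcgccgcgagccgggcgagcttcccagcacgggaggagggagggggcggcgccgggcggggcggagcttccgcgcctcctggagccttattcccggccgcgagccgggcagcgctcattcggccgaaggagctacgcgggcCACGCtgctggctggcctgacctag
None of the 4 windows held CACGTG, which occurs in 7.26% of 35116 such windows, or TGANTCA, which occurs in 7.71%. EREG had ACGTG or GCGTG on 1 strand or the other at 249 bases before and 38 after its start, and HBEGF at 25 after. TGFA has a further RefSeq window, chr2:70553397-70553696, which is not at the gene's start and is not shown. That window held GCGTG 51 bases before its own start. These core letters occur in 48.4% of windows. EREG also held TATAAA 32 bases before its start (11.5% of windows). A match is a description of the letters and not a site, and a window without one says nothing of the factor.

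TGFA, which encodes transforming growth factor alpha, fell in both cell types. Its signal was 7.96, 8.02, 8.00 and 8.17 on Sharp1 arrays A to D, 8.37, 8.42, 8.51 and 8.45 on shHIF arrays, and 9.03, 9.17, 9.00 and 9.13 on control arrays. The 3 groups did not overlap. In Sharp1 cells the difference was -1.05 (SE 0.06, 2.07-fold lower, adjusted p = 3.93e-13). That of shHIF cells was -0.64 (SE 0.06, 1.56-fold lower, adjusted p = 5.12e-09). Sharp1 cells lay 0.40 below shHIF cells (adjusted p = 4.11e-06). On a dimmer TGFA probe set, 205015_s_at, Sharp1 cells fell by 0.79 (SE 0.11), and the shHIF difference was -0.30 (adjusted p = 0.0529 over all probe sets). The dimmest, 211258_s_at, gave -0.29 and -0.24 and passed in neither. Averaged over all TGFA probe sets, the fall in shHIF cells was 0.40 (adjusted p = 7.55e-05).

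EREG, epiregulin, was lowest in Sharp1 cells. It read 7.51, 7.31, 7.32 and 7.56 on Sharp1 arrays, 8.43, 8.18, 8.65 and 8.40 on shHIF arrays, and 8.18, 8.28, 8.16 and 8.15 on control arrays. Every Sharp1 array was below every other array, whereas shHIF and control arrays overlapped. The fall in Sharp1 cells was 0.77 (SE 0.08, 1.70-fold, adjusted p = 3.13e-08), and Sharp1 cells lay 0.99 below shHIF cells (SE 0.08, 1.99-fold lower, adjusted p = 2.03e-10). The rise in shHIF cells was 0.22 (SE 0.08, adjusted p = 0.0378), a call lost without shHIF A (adjusted p = 0.0742), C (0.164) or D (0.0525), or without control A (0.0773), C (0.0860) or D (0.0880). That call was also lost with each array centred on its median (adjusted p = 0.0581), with no intensity trend (0.0829) and when adjusted over all probe sets (0.0558). The second EREG probe set, 1569583_at, near the median probe set, gave -0.21 and 0.09 against control and passed only in Sharp1 against shHIF, at -0.30 (adjusted p = 0.0277). Averaged over both, Sharp1 cells lay 0.49 below control cells and 0.64 below shHIF cells, both called. Under that mean the shHIF difference from control was 0.15 and not called (adjusted p = 0.126).

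HBEGF, the heparin-binding ligand, moved the other way in Sharp1 cells. It read 10.64, 10.60, 10.72 and 10.68 on Sharp1 arrays, 9.62, 9.76, 9.73 and 9.63 on shHIF arrays, and 10.01, 9.94, 10.01 and 10.04 on control arrays. All 4 Sharp1 arrays were above, and all 4 shHIF arrays below, every control array. HBEGF rose by 0.66 in the first (SE 0.04, 1.58-fold, adjusted p = 8.89e-12) and fell by 0.31 in the second (SE 0.04, 1.24-fold lower, adjusted p = 3.60e-06). The gap between Sharp1 and shHIF cells was 0.97 (1.97-fold, adjusted p = 3.44e-15), with the smallest adjusted p of the 9 members in that comparison. A second bright probe set, 38037_at, gave 0.68 and -0.31. The other two, 244857_at and 222076_at, lay below the median probe set, with 0.02 and 0.07 in Sharp1 cells and 0.15 and 0.16 in shHIF cells, and did not pass. With the mean of all HBEGF probe sets the Sharp1 rise was 0.36 (adjusted p = 2.37e-05), the shHIF difference was -0.08 and not called (adjusted p = 0.259), and the gap between Sharp1 and shHIF cells was 0.44 (adjusted p = 1.58e-06).

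BTC, betacellulin, was near the lowest readings of the array. Its brighter probe set, 241412_at, read 2.85, 2.87, 2.84 and 3.09 on Sharp1 arrays, 3.00, 2.94, 3.08 and 3.06 on shHIF arrays, and 3.26, 3.24, 3.29 and 3.19 on control arrays, in the lowest 7.44% of probe sets. Control arrays were highest and did not overlap either group. The fall of BTC was 0.33 in Sharp1 cells, with an SE of 0.08 (adjusted p = 0.00274). It fell by 0.23 in shHIF cells (SE 0.08, adjusted p = 0.0395). The second call was lost without control A (adjusted p = 0.0785), B (0.0682) or C (0.0875) or without shHIF A (0.0760) or B (0.102). The other probe set, 207326_at, gave -0.05 and -0.11 and passed in neither, so the sizes and calls for BTC rest on 1 dim probe set. With the mean of both, neither fall was called (-0.19, adjusted p = 0.0795, in Sharp1 cells and -0.17, adjusted p = 0.117, in shHIF cells).

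NRG1, neuregulin 1, gave different answers on its 2 brightest probe sets, which is shown in the plot of those probe sets by array. On 206343_s_at it read 11.54, 11.66, 11.63 and 11.63 on Sharp1 arrays, 12.45, 12.38, 12.33 and 12.40 on shHIF arrays, and 11.68, 11.68, 11.65 and 11.77 on control arrays. The shHIF arrays stood apart, with a rise of 0.70 (SE 0.04, 1.62-fold, adjusted p = 3.78e-13). The Sharp1 difference was -0.08 (95% interval -0.16 to -0.0043, adjusted p = 0.119). Sharp1 cells lay 0.78 below shHIF cells (adjusted p = 1.11e-14).

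On 206237_s_at NRG1 read 6.88, 6.90, 6.95 and 6.93 on Sharp1 arrays, 7.41, 7.45, 7.45 and 7.47 on shHIF arrays, and 7.65, 7.67, 7.53 and 7.61 on control arrays. Here the Sharp1 arrays were lowest, with a fall of 0.70 (SE 0.06, adjusted p = 9.45e-09 over all probe sets), and the shHIF difference was -0.17 (adjusted p = 0.0618), although no shHIF array reached a control array. The signal of the first minus that of the second, within an array, averaged 4.70 ± 0.04 in Sharp1 cells, 4.94 ± 0.07 in shHIF cells and 4.08 ± 0.07 in control cells (SD, n = 4 each). The 3 groups did not overlap, and each of 3 exact two-sided permutation tests gave p = 0.0286 (adjusted p = 0.0286), the smallest that 4 arrays against 4 allow. Groups that do not overlap always give that p, so the tests add nothing to the lack of overlap. This pair was chosen after its values were seen, and the files used here do not say which NRG1 transcripts each probe set reads. Of the other four NRG1 probe sets, 0 passed against control, and 208241_at and 208230_s_at fell in Sharp1 against shHIF cells, by 0.37 and 0.30. With the mean of all NRG1 probe sets, the shHIF difference was 0.10 (adjusted p = 0.151) and the Sharp1 difference -0.27 (adjusted p = 0.000519). Under that mean Sharp1 cells lay 0.37 below shHIF cells. The direction of NRG1 in shHIF against control cells therefore belongs to a probe set and not to the gene. Sharp1 differences were negative on all 6 NRG1 probe sets, with 1 called against control cells and 4 against shHIF cells. On 208232_x_at they were only -0.0018 and -0.0045.

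**Figure D3:**
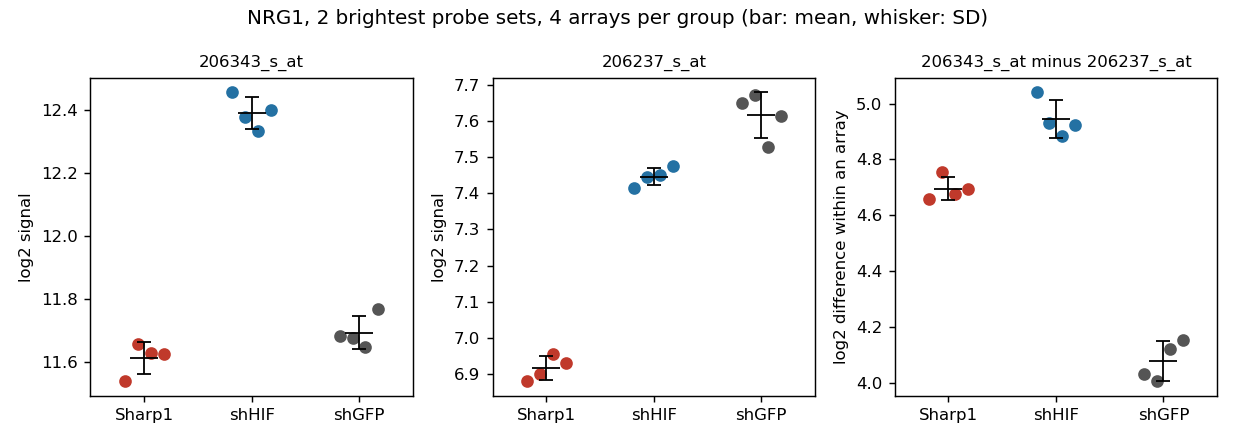
Log2 signal (vertical axes, scaled separately) of the 2 brightest NRG1 probe sets and their difference within each array, on the 4 arrays of each group, with the mean and SD. The shHIF arrays are highest on 206343_s_at, the Sharp1 arrays are lowest on 206237_s_at, and the difference is 4.08 in control cells, under both other groups.

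Among the receptors, ERBB3 had the widest range of group means of the 9 members. It read 7.12, 7.20, 7.21 and 7.26 on Sharp1 arrays, 5.51, 5.99, 5.67 and 5.62 on shHIF arrays, and 6.76, 6.90, 6.88 and 7.01 on control arrays. The 4 shHIF arrays were lowest and the 4 Sharp1 arrays highest, with no overlap. ERBB3 fell by 1.19 in shHIF cells (SE 0.09, 2.28-fold, adjusted p = 2.96e-10) and rose by 0.31 in Sharp1 cells (SE 0.09, 1.24-fold, adjusted p = 0.0128), a rise whose call was lost without control A (0.27, adjusted p = 0.0583). Sharp1 cells lay 1.50 above shHIF cells (2.83-fold, adjusted p = 1.32e-12). The fall in shHIF cells was 1.06 without shHIF A and D, and 0.32 with the mean of all ERBB3 probe sets, under which the rise in Sharp1 cells was 0.09 and not called (adjusted p = 0.376). Under that mean Sharp1 cells lay 0.41 above shHIF cells (adjusted p = 5.41e-05).

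Of 5 ERBB3 probe sets, 2 were called lower in shHIF cells. The second, 202454_s_at, read 5.90, 5.91, 5.71 and 6.00 on Sharp1 arrays, 4.75, 4.44, 5.12 and 4.93 on shHIF arrays, and 5.30, 5.61, 5.81 and 5.76 on control arrays. The fall was 0.81 (SE 0.13, adjusted p = 4.24e-05 over all probe sets), and the shHIF arrays were again apart, while Sharp1 and control arrays overlapped (0.26, adjusted p = 0.204). The remaining ones, 1563252_at, 1563253_s_at and 215638_at, gave 0.17, -0.04 and 0.25 in shHIF cells and passed in neither comparison with control. The 5 genes with the profile nearest to ERBB3 over the 12 arrays, each gene centred on its own mean, were SLC25A30, KRT19, FAXC, RCBTB2 and WIPF1, with root mean square differences of 0.12 to 0.13 on the log2 scale. KRT19 is a keratin of simple epithelia and SLC25A30 a mitochondrial carrier. Their differences in shHIF cells were -1.22 for SLC25A30, -1.13 for KRT19, -1.05 for FAXC, -1.01 for RCBTB2 and -1.20 for WIPF1. Falls near that of ERBB3 follow from how these genes were picked and are no separate result.

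EGFR read 10.81, 10.20, 10.78 and 10.88 on Sharp1 arrays, 10.89, 10.74, 10.75 and 11.09 on shHIF arrays, and 11.14, 10.84, 11.01 and 10.85 on control arrays. Sharp1 array B was the lowest of the 12, and Sharp1 D lay among the control arrays. The fall in Sharp1 cells, 0.29 (SE 0.10, adjusted p = 0.0342), was 0.14 without Sharp1 B (adjusted p = 0.188), and its call was also lost without control A (-0.23, adjusted p = 0.138) or control C (-0.28, adjusted p = 0.0929). Adjusted over all probe sets, the same probe set was not called (adjusted p = 0.0547). In shHIF cells the difference was -0.09 (95% interval -0.30 to 0.12, adjusted p = 0.549). Without shHIF A and D and Sharp1 B, a setting chosen after seeing the data, it was -0.22 and called (adjusted p = 0.00867). Sharp1 B is no array of that comparison and enters only the shared estimate of spread. Without shHIF A and D alone, EGFR was not called. With the mean of all EGFR probe sets the shHIF difference was 0.041 (adjusted p = 0.631), and the Sharp1 fall was 0.16 (adjusted p = 0.0440). Sharp1 against shHIF cells gave -0.20 (adjusted p = 0.130), and 0.077 (adjusted p = 0.409) without Sharp1 B and shHIF A and D, so the sign of EGFR turned in both of these comparisons.

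In Sharp1 cells 4 of 9 EGFR probe sets fell and 0 rose, beside 18.1% of all probe sets called (9.82% higher and 8.26% lower). Among them 201984_s_at read 9.40, 9.27, 9.32 and 9.40 on Sharp1 arrays, 9.58, 9.65, 9.57 and 9.49 on shHIF arrays, and 9.58, 9.49, 9.55 and 9.60 on control arrays, so Sharp1 arrays were apart from both other groups (-0.21, SE 0.05, adjusted p = 0.00392 over all probe sets). The others called were 224999_at (-0.21), 211607_x_at (-0.27) and 211550_at (-0.37). In shHIF cells 2 EGFR probe sets were called lower, 224999_at (-0.20) and 211550_at (-0.38), and 1 higher, 1565483_at (0.42, adjusted p = 0.0247), so they disagree in direction, beside 22.2% of all probe sets called (10.7% higher and 11.5% lower).

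ERBB2 read 8.38, 8.38, 8.48 and 8.40 on Sharp1 arrays, 8.04, 8.16, 8.00 and 8.15 on shHIF arrays, and 8.09, 8.21, 8.19 and 8.21 on control arrays. The Sharp1 arrays were above all others, by 0.23 over control cells (SE 0.06, 1.17-fold, adjusted p = 0.00322) and by 0.32 over shHIF cells (adjusted p = 7.40e-05). The shHIF difference from control was -0.09 (95% interval -0.21 to 0.03, adjusted p = 0.288). Its other probe sets, 210930_s_at and 234354_x_at, lay below the median probe set and gave -0.24 and 0.01 in Sharp1 cells and 0.07 and -0.11 in shHIF cells, none of which passed. With the mean of the ERBB2 probe sets the Sharp1 difference was 0.0016 (adjusted p = 0.992) from control cells and 0.05 (adjusted p = 0.598) from shHIF cells.

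ERRFI1, the feedback inhibitor of EGFR, was read on 1 probe set. It read 11.26, 11.24, 11.25 and 11.30 on Sharp1 arrays, 11.64, 11.73, 11.75 and 11.77 on shHIF arrays, and 11.93, 11.95, 11.91 and 12.03 on control arrays. The 3 groups did not overlap, in the same order as for TGFA. The fall of ERRFI1 was 0.69 in Sharp1 cells (SE 0.04, 1.62-fold, adjusted p = 1.27e-13). It was 0.23 in shHIF cells (SE 0.04, 1.17-fold, adjusted p = 2.03e-05). Sharp1 cells lay 0.46 below shHIF cells (adjusted p = 1.72e-10).

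Over all 35 probe sets, 4 were called higher and 10 lower in Sharp1 cells (18.1% of all probe sets called, 9.82% higher and 8.26% lower). In shHIF cells 2 were higher and 9 lower (22.2% of all probe sets called, 10.7% higher and 11.5% lower). Sharp1 against shHIF cells gave 5 higher and 12 lower (29.1% of all probe sets called, 15.3% higher and 13.8% lower). Groups did not overlap on 16 of the 35 in Sharp1 against control cells (21.6% of all probe sets), on 11 in shHIF against control cells (22.3%) and on 16 in Sharp1 against shHIF cells (28.0%). The plot of difference against signal shows that most calls came from probe sets above the median. Of the 35, 12 had a mean below 5.41.

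**Figure D4:**
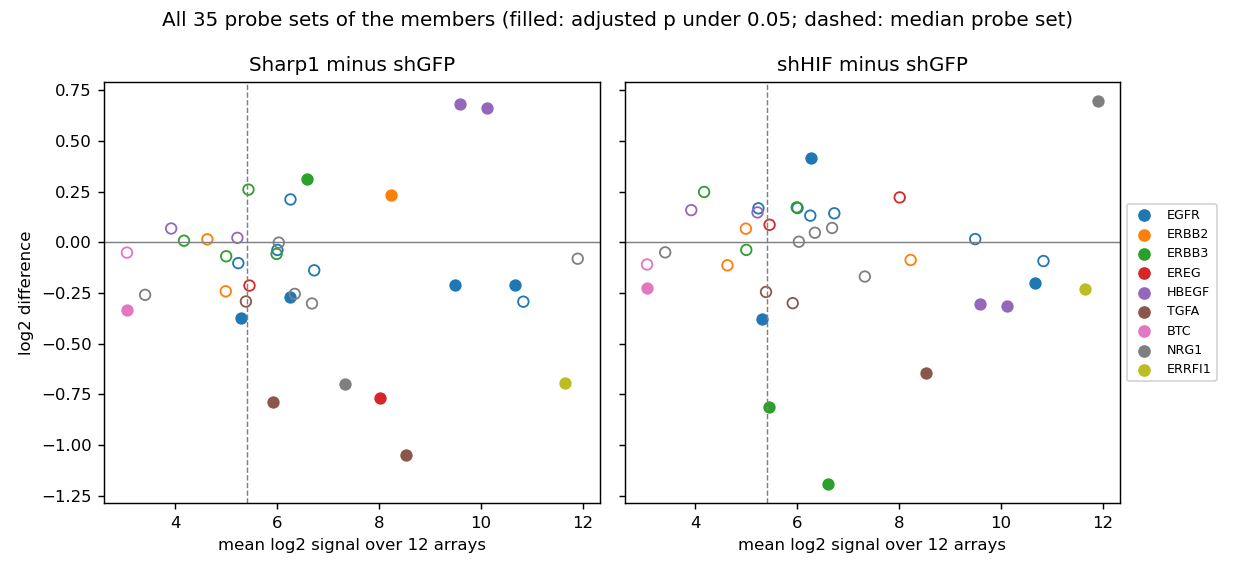
Log2 difference (vertical axes) against mean log2 signal over 12 arrays (horizontal axes) for the 35 probe sets of the members, filled where the adjusted p over all probe sets was under 0.05. TGFA at -1.05 and ERBB3 at -1.19 are the lowest points of the left and right panels, and the dashed line marks the median probe set at 5.41.

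Other genes of the pathway were read from 5 lists, 72 measured genes of 81. These lists too were chosen with earlier results of these data known, and the shares over all genes include dim genes. The part of list choice or signal level in the counts below was not tested. EPGN, PTPRJ and 7 adaptors and transducers were not analysed here. Of 20 ERK-responsive genes, 14 fell and 2 rose in Sharp1 cells, beside 11.8% of all genes lower and 15.3% higher, with a median difference of -0.26, against -0.0018 over all genes. All 20 lay above the median probe set. DUSP4, a nuclear phosphatase of ERK, read 11.81, 11.60, 11.78 and 11.87 on Sharp1 arrays, 12.17, 12.19, 12.11 and 12.07 on shHIF arrays, and 12.87, 12.80, 12.74 and 12.48 on control arrays, and fell by 0.95 (SE 0.06, adjusted p = 4.72e-12) and by 0.58 in the 2 comparisons. EGR1, an immediate early transcription factor, was 1 of the 2 genes of its list that rose. It read 9.63, 9.54, 9.82 and 9.73 on Sharp1 arrays, 9.16, 9.44, 9.32 and 9.30 on shHIF arrays, and 8.41, 8.56, 8.47 and 8.55 on control arrays, a rise of 1.18 (SE 0.06, adjusted p = 1.40e-13) in Sharp1 cells and of 0.81 in shHIF cells. The 2 that rose in Sharp1 cells became 1 without control C or Sharp1 A. In shHIF cells 8 of the 20 fell and 3 rose, beside 13.2% of all genes lower and 17.6% higher (median -0.09, against 0.05 over all genes).

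In the ligand shedding list 5 of 11 rose and 1 fell in Sharp1 cells (median 0.13), beside 15.3% and 11.8% of all genes. In shHIF cells 2 rose and 1 fell (median 0.07), so 3 of 11 were called, near the 30.8% of all genes. The protease ADAM19 rose by 0.93 and 0.44 in Sharp1 and shHIF cells. TIMP3, which inhibits ADAM17 and so stands against shedding, was the gene that fell. It read 10.84, 10.57, 10.76 and 10.80 on Sharp1 arrays, 11.45, 11.55, 11.59 and 11.54 on shHIF arrays, and 12.15, 12.13, 12.11 and 12.18 on control arrays, a fall of 1.40 (SE 0.05, adjusted p = 1.34e-17) in Sharp1 cells and of 0.61 in shHIF cells. ADAM17, the main sheddase of TGFA, EREG and HBEGF, was looked up after the values were seen, and rose by 0.27 in Sharp1 cells (SE 0.05, adjusted p = 0.000184) with a shHIF difference of 0.03 (adjusted p = 0.671).

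Of 19 genes of receptor turnover and restraint, 8 rose and 1 fell in Sharp1 cells (median 0.17), beside 15.3% and 11.8% of all genes. In shHIF cells 3 rose and 6 fell (median -0.08), beside 17.6% and 13.2%. In Sharp1 against shHIF cells 11 were higher and 2 lower, beside 18.0% and 20.4% (median 0.26, against -0.06 over all genes). The ubiquitin ligases CBL and CBLB, which mark EGFR for degradation, differed from each other in shHIF cells, where CBL fell by 0.49 (SE 0.06) and CBLB rose by 1.09 (SE 0.07). In Sharp1 cells the 8 that rose became 4 with the mean of all probe sets. In shHIF cells the 3 that rose became 1 without control A, B or C or shHIF B or D, and the 6 that fell became 3 without shHIF A and D together. In Sharp1 cells CBLB rose by 0.61 and CBL by 0.27, and the phosphatase PTPRK fell by 0.14.

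Among adaptors and transducers 3 of 17 rose in Sharp1 cells, near the 15.3% of all genes, and 4 fell, beside 11.8% (median -0.03). In shHIF cells 5 rose and 6 fell, beside 17.6% and 13.2% (median -0.02). In shHIF cells the 5 became 2 without control B and 3 without shHIF A, B or D, and the 6 became 3 without shHIF A and 2 without shHIF A and D together. The adaptor SHC1 rose by 0.44 in Sharp1 cells, and SOS1, an exchange factor for RAS, rose by 0.47 in shHIF cells. PIK3CB, a catalytic subunit of PI3K, fell by 0.30 in Sharp1 cells and by 0.23 in shHIF cells. Of the 5 other receptors and ligands of the family, 0 passed in Sharp1 cells under limma (0 also at an unadjusted p under 0.05) and 1 rose in shHIF cells, EGF (0.33, SE 0.09), which read 4.05 there and 3.72 in control cells, below the median probe set.

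**Figure D5:**
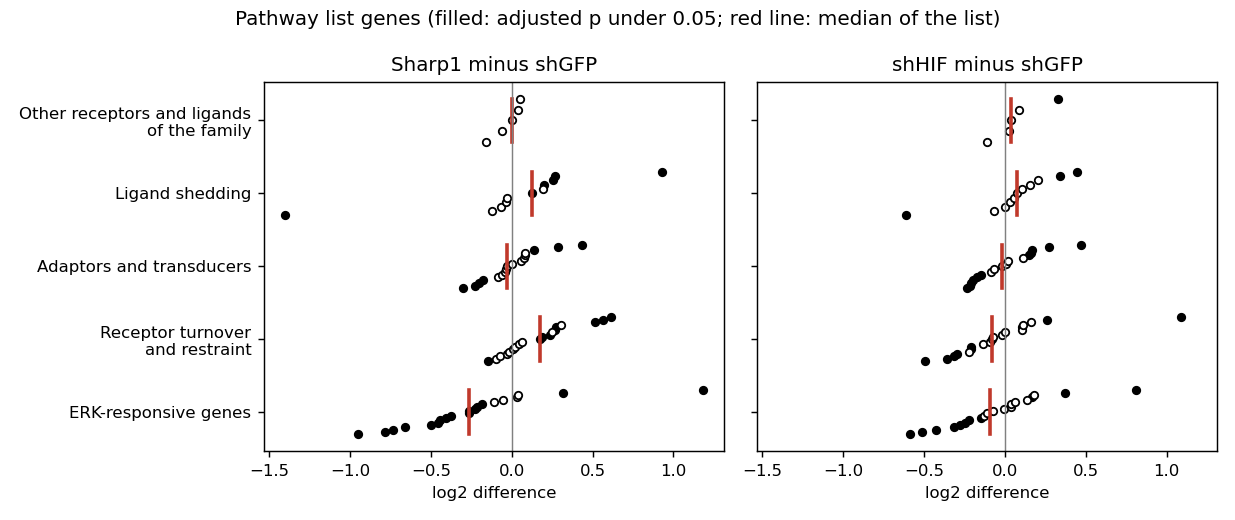
Log2 differences (horizontal axes) of the 72 measured pathway genes by list, filled where the adjusted p was under 0.05, with the median of each list as a red line. In Sharp1 cells the ERK-responsive genes have a median of -0.26 with EGR1 at 1.18 far to the right, and TIMP3 is the lowest point at -1.40.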

How the data were processed

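Total RNA of 12 samples was hybridised as biotin-labelled cRNA to Affymetrix expression arrays. The deposited log2 values were made with RMA, per the submitters' processing notes, with its version not given. RMA values carry no depth, so the number of arrays limits the precision. Detection calls and dates of scanning were not used. Of 54675 probe sets, 62 are controls, 41091 had 1 symbol in the platform annotation, 1801 several and 11721 none. By gene ID, 41037 matched the gene table of GCF_000001405.40 (GRCh38.p14), with 0 symbols differing. The probe set with the highest mean over 12 arrays stood for each of 19775 genes.

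In R 4.3.3 with limma 3.58.1, a mean per group was fitted to all 12 arrays, with eBayes with trend and Benjamini-Hochberg adjustment over all genes, or over 54613 probe sets where a single probe set is named. Alternatives changed the block, samples, scaling, probe set rule, dim filter (mean under 5), trend and weights, and left out arrays. The procedure was tested on simulated data. The named genes are the 9 measured members, the targeted genes, the called gene with the largest rise and fall per pathway list, and the 5 genes nearest to the member of widest range. The members and lists were chosen with earlier results of these data known. Probe sets ending in _s_at or _x_at can bind several transcripts. Promoter windows are RefSeq's.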

Additional observations from a re-analysis of the deposited data

Results flagged for a closer look

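In 105 groups of 4 arrays, 1 for each member probe set and group, 6 held an array far from the other 3 by Dixon's test, and chance flags about 1 in 20. On Sharp1 B, EGFR read 10.20 on 201983_s_at, where the nearest Sharp1 array read 10.78, and 10.32 on 224999_at, where the nearest read 10.66. EGFR also read 4.97 on shHIF B on 211550_at, with the nearest shHIF array at 5.23, and 5.71 on control B on 1565484_x_at, with the nearest control array at 6.03. ERBB2 read 8.09 on control A on 216836_s_at, with the nearest at 8.19. BTC read 3.09 on Sharp1 D on 241412_at, with the nearest at 2.87.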

How the results depend on the processing

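Of 564 comparisons of a member under an alternative, 525 kept direction and side of the threshold, 32 lost the call, 5 gained one and 2 turned sign, single probe sets aside. Both are uncalled EGFR values, 0.041 in shHIF against control cells with the mean of all probe sets and 0.077 in Sharp1 against shHIF cells without Sharp1 B and shHIF A and D. Some alternatives leave the difference itself unchanged, so only the call could move in them. These include the replicate block, the fit without trend and leaving out an array of the group not compared. TGFA, EREG, HBEGF and ERRFI1 in Sharp1 cells and ERBB3, TGFA and ERRFI1 in shHIF cells kept their calls in all 21 alternatives. In shHIF against control cells, members called higher numbered 1 with each array centred, with no intensity trend, without shHIF A and D, and without these and Sharp1 B (the last chosen after seeing the data), 0 with the mean of all probe sets (2 in the report), and 1 to 2 leaving out an array. Members called lower there numbered 3 with the mean (4 to 5 leaving out an array). In Sharp1 against control cells the mean gave 1 member higher (2 to 3 leaving out an array) and 10 pathway genes higher in place of 18. Pathway genes higher in shHIF cells ran from 9, without control B, to 15. The cause was not tested. Deviations of same-letter samples correlated from -0.16 to 0.13 over 12 pairs, and those of different letters between groups from -0.17 to 0.21. The labels do not say whether a letter marks a shared culture or day, and these correlations cannot exclude it. With the replicate block, all-gene calls numbered 5186, 5897 and 7373, against 5370, 6095 and 7588 without it. BTC in shHIF cells then lost its call (adjusted p = 0.0542) and EGFR in Sharp1 against shHIF cells gained one (0.0467).

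Single probe sets with a sign opposite to the brightest were, in Sharp1 against control cells, EGFR 1565483_at (0.21), ERBB2 210930_s_at (-0.24), ERBB3 1563252_at (-0.058) and 1563253_s_at (-0.069). In shHIF against control cells they were EGFR 1565483_at (0.42), 201984_s_at (0.016), 210984_x_at (0.14), 211607_x_at (0.13), 1565484_x_at (0.17) and 211551_at (0.17), ERBB2 210930_s_at (0.067), ERBB3 1563252_at (0.17) and 215638_at (0.25), HBEGF 244857_at (0.15) and 222076_at (0.16), and NRG1 206237_s_at (-0.17) and 208231_at (-0.050). In Sharp1 against shHIF cells they were EGFR 211550_at (0.0088), BTC 207326_at (0.059), ERBB2 210930_s_at (-0.31), ERBB3 1563252_at (-0.23), 1563253_s_at (-0.031) and 215638_at (-0.24), and HBEGF 244857_at (-0.13) and 222076_at (-0.091). The filter at a mean of 5 left BTC out.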
